A study of Mus musculus with 12 samples.

Results

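The genes described here encode the subunits of the mitochondrial oxidative phosphorylation system, measured by RNA sequencing of mouse liver. They were chosen by name: every protein-coding gene whose symbol belongs to the *Nduf* A, B, C, S or V series, *Sdha* to *Sdhd*, the *Uqcr* genes, *Cox4* to *Cox8*, the *Atp5* genes, or the protein-coding genes of the mitochondrial genome. The rule found 98 of the 54532 genes in the table, 85 in the nucleus and 13 in the mitochondrial genome, and used no measured value. A gene was tested where its mean over all mice was at least 1 FPKM (fragments per kilobase of gene, scaled to the size of the library, the unit of the deposited values), which 91 members passed (78 nuclear and 13 mitochondrial) among 11083 genes in all.

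Oxidative phosphorylation is the set of reactions by which mitochondria turn the electrons of nutrients into ATP. Complex I (NADH dehydrogenase) and complex II (succinate dehydrogenase) pass electrons through ubiquinone to complex III (the cytochrome *bc1* complex), cytochrome *c* and complex IV (cytochrome *c* oxidase), and the proton gradient that complexes I, III and IV build drives complex V, the ATP synthase. The mitochondrial genome encodes the core membrane subunits of complexes I, III, IV and V, the nucleus encodes all others including the whole of complex II, and hepatocytes are rich in mitochondria because gluconeogenesis, urea synthesis and fatty acid oxidation take place in part inside them.

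Male C57BL/6J mice were given 1 of 4 diets for 26 weeks from the age of 5 weeks, with 3 livers per group. ND-fed mice ate a normal diet, control mice ate a high-fat diet, and the HYA-treated and LA-treated mice ate that high-fat diet with 1% HYA or 1% LA mixed in. LA is linoleic acid, and HYA is the hydroxylated product into which intestinal bacteria convert it. The ND group differs from the other 3 in the base diet, and the control mice ate that base diet with no fatty acid added. All values come from whole liver, in which fewer cells of a type and less RNA per cell cannot be told apart.

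Depth was between 17169064 and 25220880 fragments assigned to genes per mouse. The table was that of a liver: summed levels of 12 hepatocyte markers were 36742 to 57441 FPKM, against 0.366 to 1.14 FPKM for 14 skeletal and cardiac muscle markers, none of which passed the filter. Cell type markers differed between diets. The hepatocyte sum was 53939 to 57441 FPKM in ND-fed mice, 36742 to 41971 in control mice, 47100.4 to 48918 in HYA-treated mice and 39852 to 41570.2 in LA-treated mice, while the sum of 11 hepatic stellate cell markers was 52.9 to 66.7, 108 to 144, 89.3 to 109 and 119 to 145 FPKM in the same order. The deposited columns themselves totalled 407652 to 429286 FPKM in ND-fed mice and 342146 to 368132 in control mice, and these sums are on that scale. In control against ND-fed mice 9 of the 12 hepatocyte markers were called lower and none higher (19.1% of all tested genes were lower and 16.2% higher). Called higher were 8 of 11 stellate, 4 of 8 endothelial, 2 of 3 bile duct, 4 of 10 macrophage and 3 of 4 adipocyte markers. Called lower were 2 macrophage, 1 adipocyte and 1 of 5 erythroid markers. The part of these shifts in the differences between diets was not tested.

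How the libraries were put on a common scale moved the values of these genes more than any other choice. The number by which the deposited values had been divided, relative to the fragments assigned to genes, was 0.917 to 0.953 in ND-fed mice, 1.03 to 1.10 in control mice, 0.980 to 1.01 in HYA-treated mice and 1.05 to 1.06 in LA-treated mice. The deposited scale was close to that of median-ratio size factors, and rescaling to TPM (transcript abundances that add up to the same total in every library) or to fragments on nuclear genes moved the median difference between control and ND-fed mice over all tested genes from −0.04 to 0.17 or 0.11 on the log2 scale. Values are on the deposited scale unless TPM is named. Differences are of log2(FPKM + 1), with the standard error (SE) and the p-value of the limma fit across all tested genes, adjusted by the Benjamini-Hochberg method; a gene was called where the adjusted p was under 0.05.

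Levels differed far more between members than between diets. Per kilobase of gene, averaged over all 12 mice, the highest nuclear members were *Atp5a1*, the catalytic-head alpha subunit of ATP synthase, at 344 FPKM and *Cox8a*, a small structural subunit of complex IV, at 331 FPKM. *Uqcr10* led complex III at 173 FPKM, *Sdha* led complex II at 153 FPKM and *Ndufa4* led the genes named as complex I at 142 FPKM. The median tested nuclear member stood at 44.8 FPKM in complex I, 109 in complex II, 117 in complex III, 96.3 in complex IV and 58.8 in complex V. Over all nuclear members the median was 62.0 FPKM, against 5.33 FPKM over all tested genes. *Ndufb2* was the lowest tested member at 1.21 FPKM, and the table gives this gene a length of 5628 bases, so that its level per kilobase depends on that long gene model. Mice of a group agreed closely: the median within-group SD was 0.08 for nuclear members on the log2 scale, against 0.11 for all tested genes.

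For several subunits the genome holds isoform genes used in different tissues, and in liver 1 gene carried nearly all of the signal in most families. Exceptions were the c ring genes of ATP synthase, and *Cox7a2l*, whose level was not far below that of *Cox7a2*. *Cox6a1*, the widely expressed form, was at 309 FPKM, while the heart and muscle form *Cox6a2* reached 0.198 FPKM at most in any mouse. *Cox8a* was at 331 FPKM, *Cox8b*, another muscle form, reached 0.261 FPKM at most, and *Cox8c* was listed at 0 in all 12 mice, where 3 fragments would put a gene of 2 kb at 0.0607 to 0.0944 FPKM. *Cox4i1* was at 210.4 FPKM and *Cox4i2*, a form known from lung and from low oxygen, at 0.490 FPKM or less.

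*Cox7a2*, the liver-type form, was at 96.9 FPKM and *Cox7a1*, the muscle-type form, passed the filter at 2.30 FPKM. *Cox7a2l*, named for its likeness to *Cox7a2*, was at 73.1 FPKM. *Cox6b1* was at 191 FPKM and the testis form *Cox6b2* at 0.436 FPKM or less, while *Cox7b* was at 95.8 FPKM and *Cox7b2* was listed at 0. *Ndufa4*, named as a complex I gene and now known as a subunit of complex IV, was at 142 FPKM and its relative *Ndufa4l2* at 1.47 FPKM. The c ring of ATP synthase, the rotor through which protons pass, is made of 1 protein encoded by 3 genes, of which *Atp5g3* was at 145 FPKM, *Atp5g2* at 37.6 and *Atp5g1* at 16.8. None of the 11 tested isoform genes of these families other than *Ndufa4* and *Cox7a2l* was called in any of the 6 comparisons on the deposited scale. After rescaling to TPM, 6 of them were called higher in control against ND-fed mice (*Cox4i1*, *Cox6a1*, *Cox6b1*, *Cox7a2*, *Atp5g2* and *Atp5g3*), 5 in LA-treated against ND-fed mice (*Cox6a1*, *Cox6b1*, *Cox7a1*, *Cox7a2* and *Atp5g3*) and 1 in HYA-treated against ND-fed mice (*Cox6b1*), while *Ndufa4* and *Cox7a2l* were not called. The shares of all tested genes on TPM are given with each of these comparisons below. *Cox4i2*, *Cox6a2*, *Cox6b2*, *Cox7b2*, *Cox8b*, *Cox8c* and a second *Atp5o* entry that was 0 throughout were the 7 members left out of the tests.

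**Figure D1:**
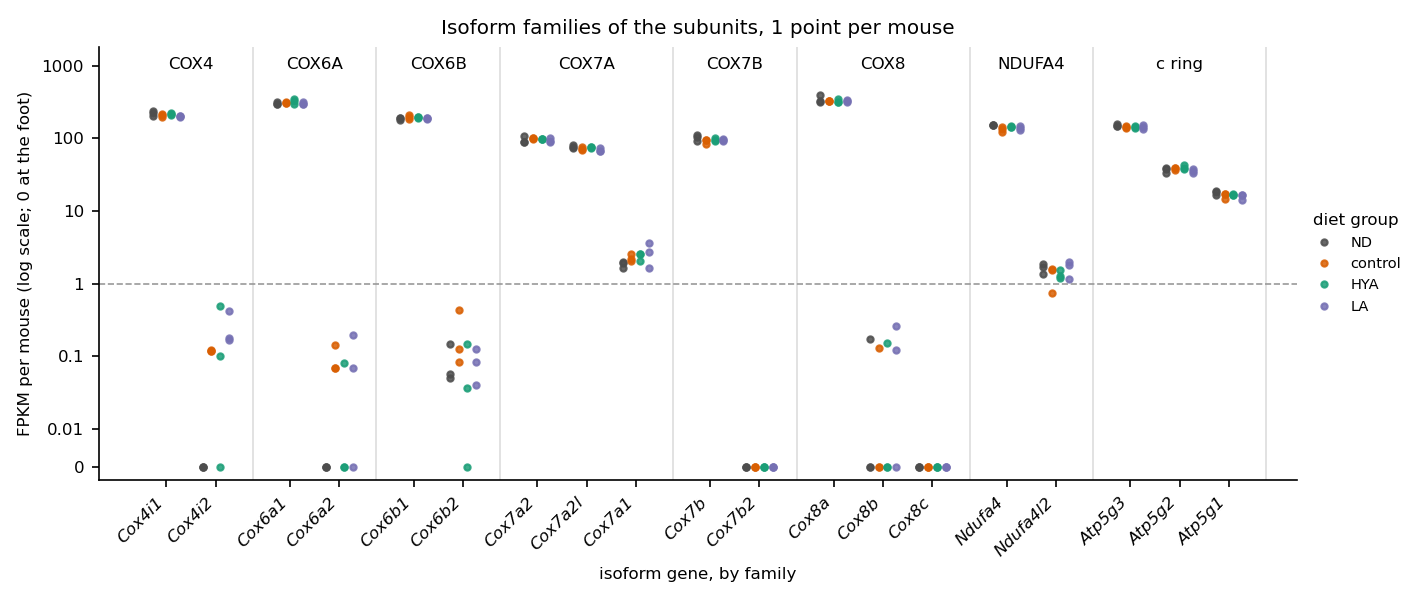
FPKM of each isoform gene (y axis, log scale with 0 at the foot) by family (x axis), 1 point per mouse and 1 colour per diet. The dashed line is the 1 FPKM filter; *Cox6a1* sits near 309 FPKM in every group while *Cox6a2* stays at 0.198 FPKM or less.

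The 13 mitochondrial members fell into separate ranges of level. *mt-Co1*, the catalytic subunit of complex IV, was highest of all members at 14018 FPKM, followed by *mt-Cytb* of complex III at 8092 FPKM and by 4 of the complex I subunits, *mt-Nd1* at 5915, *mt-Nd2* at 5548, *mt-Nd4* at 2967 and *mt-Nd5* at 2775 FPKM. *mt-Nd6* was at 148 FPKM. The 6 members that lie side by side between *mt-Co1* and *mt-Nd4* were far lower. *mt-Co2* was at 221 FPKM, *mt-Atp6* at 146, *mt-Co3* at 101, *mt-Nd4l* at 47.3, *mt-Nd3* at 17.4 and *mt-Atp8* at 7.46 FPKM, although all 6 come from the same long precursor RNA as their neighbours.

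These 6 low values are uncertain because much of the stretch has a copy in the nuclear genome. Annotated pseudogenes on the minus strand of chromosome 1, between positions 24611535 and 24616197 of GRCm38, match 5 of the 6 genes almost end to end in the GENCODE transcripts: 783 of 784 bases of *mt-Co3* are identical in *Gm28437*, 681 of 684 bases of *mt-Co2* in *Gm28661* and 678 of 681 bases of *mt-Atp6* in *Gm10925*. *mt-Nd3* shares 342 of 348 bases with *Gm28438* and *mt-Nd4l* shares 294 of 297 bases with *Gm10222*, again with no mismatch. *mt-Atp8*, which overlaps the start of *mt-Atp6*, matched no annotated copy at the alignment score required. Chromosome 1 outside the annotated pseudogenes was not compared, so whether *mt-Atp8* has a copy there is not known. The copy also takes in 876 of the 1378 bases of *mt-Nd4* without a mismatch, and the end of *mt-Co1*, where the longest identical run is 479 bases. *mt-Nd1*, *mt-Nd2*, *mt-Nd5*, *mt-Nd6* and *mt-Cytb* matched none of the pseudogenes.

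The edge of the copied part of *mt-Co1* (chrMT:6382-6423, plus strand) and of *Gm29216* (chr1:24616155-24616196, minus strand) is printed to show how abruptly identity begins; capitals mark the start of the identical run, which goes on beyond the stretch.
mt-Co1: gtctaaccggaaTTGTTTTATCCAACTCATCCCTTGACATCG
Gm29216: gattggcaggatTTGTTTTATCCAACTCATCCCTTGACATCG

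The first 60 bases of *mt-Co3* (chrMT:8607-8666, plus strand) are printed because they are the same, letter for letter, in *Gm28437* (chr1:24613912-24613971, minus strand), so that a fragment from within them has 2 equal places to map.
mt-Co3: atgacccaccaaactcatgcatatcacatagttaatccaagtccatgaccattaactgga

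The pseudogenes had values of their own, *Gm28437* 24.9 to 133 FPKM and *Gm28661* 60.6 to 86.7 FPKM over the 12 mice. featureCounts, the counting tool in the submitters' processing notes, leaves out fragments with several places to map unless told otherwise, and its setting is not given in the sources used here. The within-group SD of the 6 genes had a median of 0.49 on the log2 scale, against 0.08 for the other 7 mitochondrial members. *mt-Co2* shows that scatter: 212, 198 and 629 FPKM in ND-fed mice, 151, 171 and 213 in control mice, 159, 127 and 215 in HYA-treated mice and 220.4, 185 and 169.5 in LA-treated mice. 1 ND-fed mouse stood far above the other 11, which overlapped across all diets. None of the 6 was called in any comparison, and none of their 95% intervals for control against ND-fed mice lay within ±0.5 on the log2 scale, so that a difference of that size could not be detected reliably in them.

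**Figure D2:**
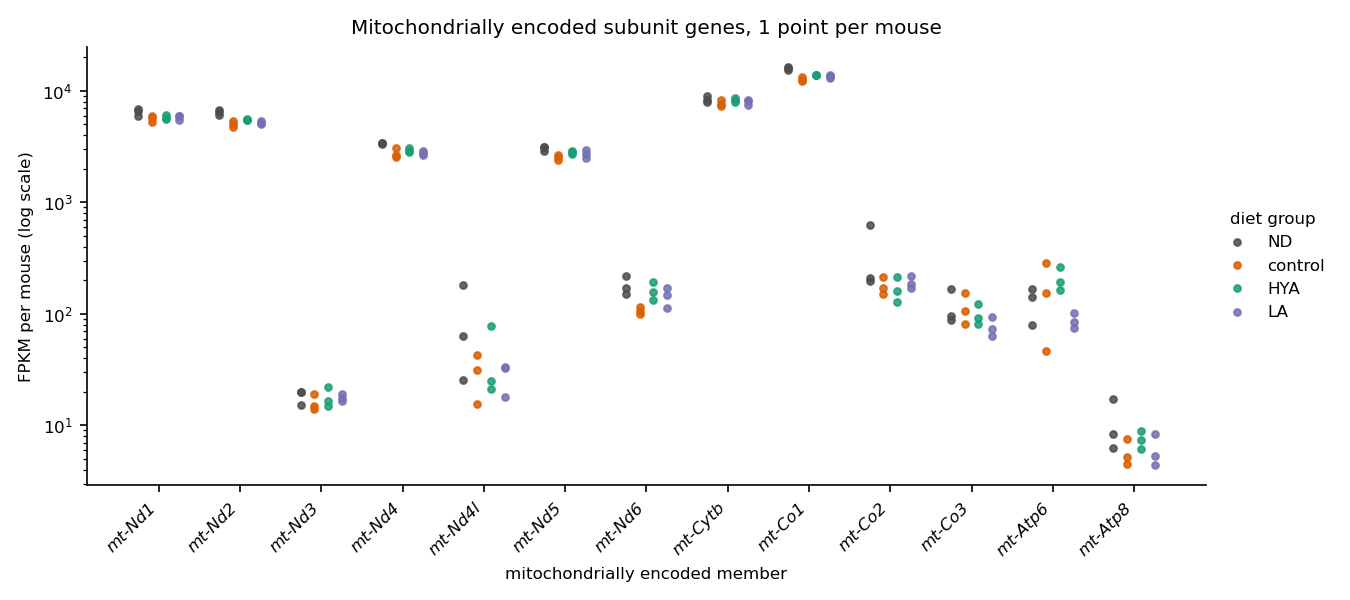
FPKM of the 13 mitochondrially encoded members (y axis, log scale) grouped by complex (x axis), 1 point per mouse and 1 colour per diet. *mt-Co1*, *mt-Cytb*, *mt-Nd1*, *mt-Nd2*, *mt-Nd4* and *mt-Nd5* lie at 2402 FPKM or more, and the 6 genes from *mt-Co2* to *mt-Nd4l* lie lower with wide scatter between mice of a diet.

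The first comparison asked how the high-fat diet alone, in control against ND-fed mice, related to these genes. On the deposited scale 1 member was higher (16.2% of all tested genes were) and 17 members were lower, 18.7% of the 91 tested (19.1% of all tested genes were), so the share of members called lower was close to that of the transcriptome and the share called higher was well under it. None had an absolute log2 difference above 1 (3.88% of all tested genes passed both limits). On the TPM scale the same comparison gave 30 members higher and 1 lower, with 34.2% and 6.60% of all genes, so the direction of the nuclear members as a set follows the scale and is not settled by these data. No member was called in opposite directions by the 4 scalings. The 17 lower calls on the deposited scale became 10 without ND replicate 2 and 9 without control replicate 1.

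A change of scale moves all genes of a library nearly together, and subtracting the median of all tested genes takes out most of it. Agreement between scales is then built in and adds no support. The values below are given relative to that median. The median nuclear member differed from it by −0.04 on the deposited scale, −0.02 on the TPM scale and −0.01 when scaled to nuclear fragments. The median mitochondrial member differed from it by −0.26, −0.24 and −0.23. Of the 78 nuclear members, 74 had a 95% interval within ±0.5 on the deposited scale, which bounds how far most of them can have moved.

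On the deposited scale 5 of the 13 mitochondrial members were called lower in control than in ND-fed mice (19.1% of all tested genes were). On TPM 1 was called lower, and *mt-Nd1*, *mt-Nd3*, *mt-Co3* and *mt-Cytb* turned positive. *mt-Nd6*, a complex I subunit and the only protein gene on the other strand of the mitochondrial DNA, was 150.03, 219 and 169 FPKM in ND-fed mice and 99.7, 107 and 116 in control mice, with 193, 134 and 158 in HYA-treated and 113, 169 and 149 in LA-treated mice. All 3 control mice lay below all 3 ND-fed mice, and the other diets overlapped with ND. The difference between control and ND-fed mice was −0.72 (SE 0.18, limma adjusted p = 0.0101), 0.599 times the ND mean. *mt-Nd6* was the 1 member called lower on every scale, at −0.48 with adjusted p = 0.0491 by limma on TPM. It overlaps the end of *mt-Nd5* on the opposite strand, and whether counting used strand is not given in the sources used here, so fragments of the 2 strands cannot be told apart.

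*mt-Co1* was 15491, 16383 and 16072 FPKM in ND-fed mice and 12307, 13320.1 and 12491 in control mice. HYA-treated mice had 13967, 13926 and 13772 FPKM and LA-treated mice 13893, 13027 and 13563. ND-fed mice were the highest group with no overlap with any other, and the difference of control from ND was −0.33 (SE 0.06, limma adjusted p = 0.00205), or −0.09 on the TPM scale, where it was not called (adjusted p = 0.166).

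*mt-Nd2*, a proton-pumping subunit of complex I, was 6722, 6129.8 and 6469.9 FPKM in ND-fed mice against 4737, 5381 and 5059.7 in control mice, again without overlap. Its difference was −0.35 (SE 0.07, limma adjusted p = 0.00233) on the deposited scale and −0.11 on TPM. *mt-Nd4* differed by −0.30 and *mt-Nd5* by −0.27, both called on the deposited scale and neither on TPM, where they were at −0.07 and −0.03. *mt-Nd1* was −0.18 and 0.06 and *mt-Cytb* −0.11 and 0.13 on the 2 scales, called on neither. Mitochondrial members took 5.32 to 5.49% of all fragments in ND-fed mice and 4.93 to 5.24% in control mice, 2 ranges that did not overlap. Their share was 5.03 to 5.21% in HYA-treated mice and 5.02 to 5.47% in LA-treated mice, which overlapped with ND. The nuclear members took 1.04 to 1.09% in ND-fed and 1.132 to 1.151% in control mice, also without overlap but in the other direction.

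Complex I held the 1 nuclear member that was higher and most of those that were lower. Of its 37 tested nuclear members 9 were called lower on the deposited scale, where 19.1% of all tested genes were. These counts go by gene name, so they take in *Ndufa4*, now known as a subunit of complex IV. *Ndufa4* was among the genes called lower, at −0.19 (limma adjusted p = 0.0297). On TPM none was called lower and 11 were called higher, beside the TPM shares of all genes given above. *Ndufb11*, an accessory subunit of the membrane arm, was 109, 115 and 119 FPKM in ND-fed mice and 83.7, 98.6 and 94.9 in control mice, a difference of −0.31 (SE 0.08, limma adjusted p = 0.0127) that was −0.07 on TPM. *Ndufs3*, a core subunit of the arm that reaches into the matrix, was 42.3, 48.2 and 44.5 FPKM against 34.0, 37.1 and 39.3, and *Ndufv3*, an accessory subunit next to the NADH site, was 23.2, 24.4 and 26.8 against 20.0, 19.4 and 21.6. In these 3 genes no control mouse reached the lowest ND-fed mouse.

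*Ndufs3* differed by −0.28 (SE 0.07, limma adjusted p = 0.00772) and *Ndufv3* by −0.27 (SE 0.07, limma adjusted p = 0.0149), or −0.05 each on TPM. The 7 nuclear core subunits, which carry the flavin and the iron-sulphur clusters, had a median of −0.16, with 4 of 7 called lower (*Ndufs3*, *Ndufs7*, *Ndufs8* and *Ndufv1*), against −0.08 and 5 of 30 lower for the accessory subunits. The accessory count goes by name and takes in *Ndufa4*. The TPM scale turned the core median to 0.07 with none called lower, and it remained 0.10 below the median of all genes there.

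*Ndufa10*, an accessory subunit of the proton-pumping arm, was the member called higher, at 41.1, 44.1 and 45.2 FPKM in ND-fed mice and 47.0, 49.7 and 48.2 in control mice. All 3 control mice were above all 3 ND-fed mice, by 0.15 (SE 0.05, limma adjusted p = 0.0417) on the deposited scale and 0.39 on TPM. The call on the deposited scale was lost without any of 9 single mice, with adjusted p between 0.0534 and 0.140 by limma.

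*Ndufa10* and *Ndufb11* were the nuclear members called with the largest increase and decrease, and their start regions are printed from RefSeq (GRCm38.p6, 300 bases around the annotated start, 5′ to 3′ along the gene) together with that of *Ndufa12*, described further on; capitals mark a match to a searched motif. They lie at chr1:92473709-92474008 (minus strand), chrX:20617570-20617869 (minus strand) and chr10:94198785-94199084 (plus strand).
Ndufa10: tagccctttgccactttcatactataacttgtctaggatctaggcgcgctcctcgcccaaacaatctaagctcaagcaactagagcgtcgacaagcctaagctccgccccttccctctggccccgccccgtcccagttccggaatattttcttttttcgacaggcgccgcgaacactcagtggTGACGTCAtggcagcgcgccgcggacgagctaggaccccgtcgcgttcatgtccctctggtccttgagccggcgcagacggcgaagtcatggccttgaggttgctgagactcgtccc
Ndufb11: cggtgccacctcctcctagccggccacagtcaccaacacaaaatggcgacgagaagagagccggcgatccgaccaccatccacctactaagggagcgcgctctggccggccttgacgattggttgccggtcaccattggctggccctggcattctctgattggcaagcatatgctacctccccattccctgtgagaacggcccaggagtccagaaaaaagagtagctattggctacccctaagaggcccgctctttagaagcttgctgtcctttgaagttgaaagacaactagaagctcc
Ndufa12: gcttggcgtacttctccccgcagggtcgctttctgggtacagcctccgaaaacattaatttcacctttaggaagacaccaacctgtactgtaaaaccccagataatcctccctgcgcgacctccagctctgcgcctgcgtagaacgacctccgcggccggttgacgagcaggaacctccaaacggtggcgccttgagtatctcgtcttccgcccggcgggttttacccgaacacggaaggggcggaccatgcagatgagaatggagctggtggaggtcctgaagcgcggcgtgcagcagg

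Motifs of 5 factors known to act on respiratory genes were searched on both strands, none of which contains another: NRF1 as GCGCATGCG, the ETS core bound by GABP as CCGGAAG, YY1 as AAGATGGC, the ERR element as CAAGGTCA and the cyclic AMP response element (CRE) as TGACGTCA. RefSeq start regions were found for 66 of the 85 nuclear members. These members had 71 start regions. The NRF1 letters stood in 11.3% of them and in 1.75% of all 32851 start regions of that length. The ETS letters stood in 22.5% and 8.86%, and the YY1 letters in 12.7% and 2.75%. The ERR and CRE letters each stood in 5.63% of member regions, against 1.56% and 1.79% of all start regions. Member regions and all regions were not matched for base composition or expression. *Ndufa10* holds the CRE letters, and *Ndufb11* and *Ndufa12* hold none of the 5 within these windows. Among the 10 members called lower in control mice with a start region, 3 held the ETS letters, 1 the YY1 letters and none the NRF1, ERR or CRE letters. These are matches of letters and no binding was measured.

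None of the 4 genes of complex II, which also belongs to the citric acid cycle, was called in any comparison on the deposited scale. *Sdha*, the flavoprotein, was 149.7, 163 and 155 FPKM in ND-fed mice and 143, 152 and 147 in control mice, with overlap, a difference of −0.08 (SE 0.05). *Sdhb*, the iron-sulphur subunit, was 78.2, 80.4 and 88.1 FPKM against 64.7, 77.5 and 69.8, and its −0.22 (SE 0.08) came closest to a call at an adjusted p of 0.0517 by limma. The membrane anchors *Sdhc* and *Sdhd* differed by −0.14 and −0.02. All 4 intervals lay within ±0.5 on the deposited scale. On TPM all 4 differences turned positive, and *Sdha* at 0.16 (limma adjusted p = 0.0104) and *Sdhd* at 0.21 (limma adjusted p = 0.00377) were called higher. Both were also called higher on TPM in HYA-treated and in LA-treated against ND-fed mice.

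Complexes III, IV and V held few called members on the deposited scale. On TPM 5 of 8 in complex III, 5 of 12 in complex IV and 7 of 17 in complex V were called higher and none lower. Of all tested genes 16.2% were higher and 19.1% lower on the deposited scale, with the TPM shares given above. On the deposited scale complex III had none called, and its highest member *Uqcr10* was 169, 161 and 160.2 FPKM in ND-fed mice against 176, 189 and 179 in control mice, a difference of 0.15 with an adjusted p of 0.0713 by limma, and 0.39 (adjusted p = 0.00034) on TPM. Complex IV, counted by name and so without *Ndufa4*, had 1 of 12. This was *Cox6c*, a small membrane subunit, at 43.5, 48.8 and 46.2 FPKM against 37.8, 42.8 and 38.3. That difference of −0.22 (SE 0.08, limma adjusted p = 0.0476) became 0.02 on TPM. The highest complex IV member, *Cox8a*, differed by −0.08 with overlap between the groups, and by 0.15 on TPM, not called on either scale.

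Complex V had 2 of 17 called lower, both in its peripheral stalk, the stator that holds the catalytic head in place. *Atp5h* was 92.7, 100.04 and 95.3 FPKM in ND-fed mice and 72.7, 85.6 and 75.7 in control mice, and *Atp5o* was 31.3, 30.5 and 30.7 against 23.0, 27.6 and 27.8. Neither overlapped between the groups. Their differences were −0.30 (SE 0.07, limma adjusted p = 0.00891) and −0.23 (SE 0.07, limma adjusted p = 0.0264), or −0.07 and −0.01 on TPM. *Atp5a1*, the highest member, was at −0.14, or 0.10 on TPM, and not called on either scale.

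The medians of the 5 nuclear gene groups were close together in control against ND-fed mice, at −0.10 for complex I, −0.11 for II, −0.09 for III, −0.08 for IV and −0.08 for V. On TPM they were 0.13, 0.12, 0.14, 0.16 and 0.15, each 0.01 to 0.04 below the median of all genes. Single nuclear members ranged from −0.33 to 0.26 on the deposited scale, and differences between the complexes were not tested.

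**Figure D3:**
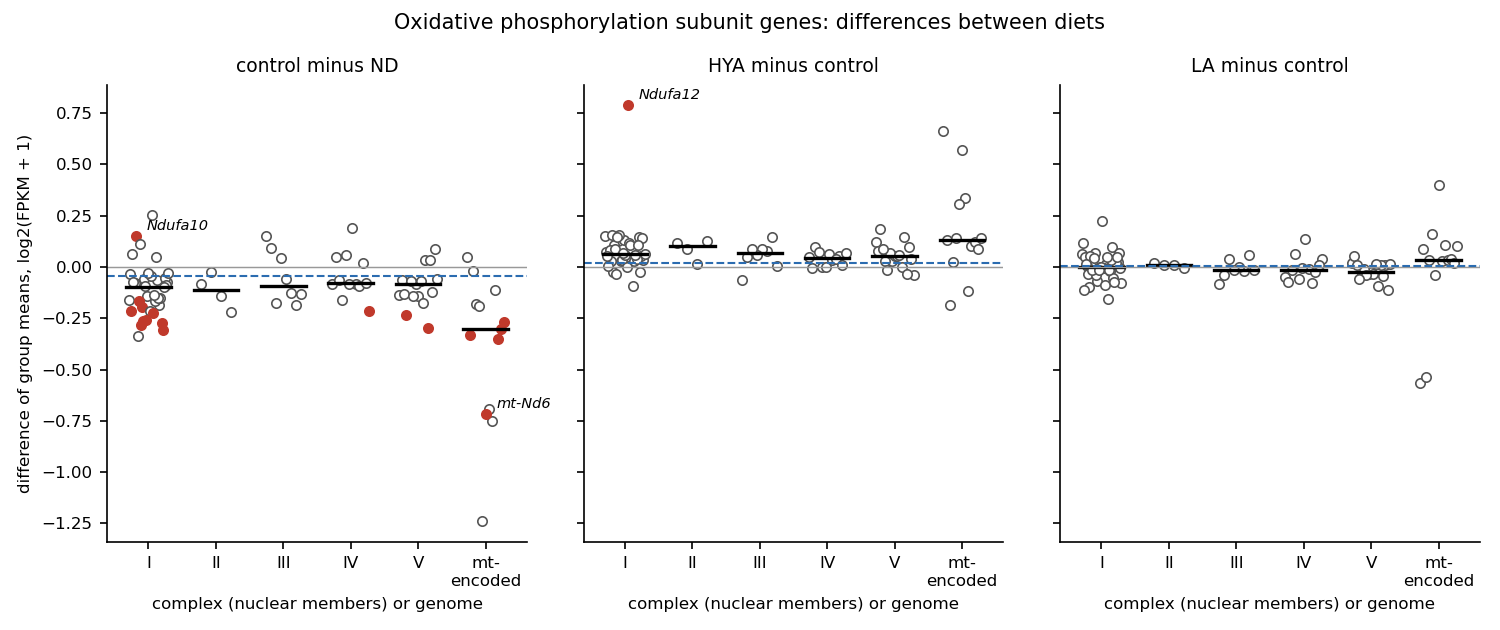
Difference of group means in log2(FPKM + 1) (y axis) for each tested member, by complex for nuclear members and together for the mitochondrial members (x axis), in 3 comparisons. Filled red points were called, black bars are medians and the blue dashed line is the median of all 11083 genes; the mitochondrial median of −0.30 in the left panel lies below all 5 nuclear medians, which lie above 0 on the TPM scale (0.12 to 0.16).

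The second comparison asked how HYA added to the high-fat diet related to these genes. In HYA-treated against control mice 1 member was higher (1.57% of all tested genes were) and none was lower (1.23% were); by limma at an unadjusted p under 0.05 the counts were 6 higher and 0 lower of 91, against 1180 higher and 875 lower of all 11083 tested genes. No member passed both the p and the fold limit, which 0.307% of all tested genes did.

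The member called was *Ndufa12*, an accessory subunit of complex I that sits near the junction of the matrix and membrane arms (chromosome 10, 94198720 to 94221443, plus strand). Its levels were 8.96, 8.35 and 7.34 FPKM in ND-fed mice, 11.5, 9.90 and 8.67 in control mice, 20.7, 16.4 and 17.0 in HYA-treated mice and 10.5, 8.97 and 8.61 in LA-treated mice. All 3 HYA-treated mice lay above all 9 others. The mean of 18.05 ± 2.36 FPKM (SD, n = 3) was 1.80 times that of control mice, 10.04 ± 1.43 (SD, n = 3), a log2 difference of 0.79 (SE 0.12, limma adjusted p = 0.0168) that ranked 24th by p among all tested genes. It was 0.70 with adjusted p = 0.0266 by limma on TPM, and without 1 HYA-treated mouse (replicate 2) it was 0.85 with the adjusted p at 0.0680.

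Behind these levels were 207 to 660 fragments per mouse. *Ndufa12* was also 2.20 times higher in HYA-treated than in ND-fed mice, a log2 difference of 1.04 (SE 0.12, limma adjusted p = 0.000234). Control against ND gave 0.26 (SE 0.12, adjusted p = 0.116 by limma), with overlap between these groups. Of the flanking genes in the table, *Nr2c1*, a nuclear receptor, differed by 0.13 in HYA-treated against control mice (limma adjusted p = 0.458) and *Tmcc3* by −0.20 (limma adjusted p = 0.251), neither called.

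**Figure D4:**
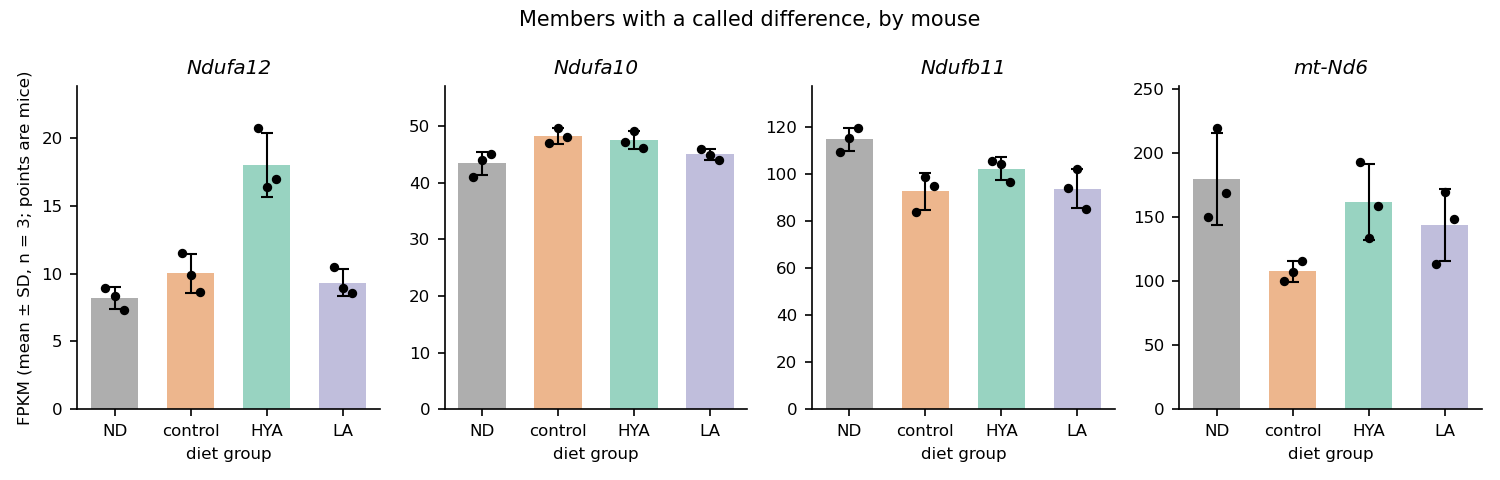
FPKM of *Ndufa12*, *Ndufa10*, *Ndufb11* and *mt-Nd6* (y axis from 0) by diet group (x axis); bars are means, error bars SD of 3 mice and points single mice. The HYA-treated mice reach 16.4 to 20.7 FPKM of *Ndufa12* and all other mice stay at or under 11.5 FPKM.

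No other member was called in HYA-treated against control mice, and the remaining differences were small. The median nuclear member was 0.06 above control on the deposited scale and −0.06 on TPM, 0.04 and 0.03 above the median of all genes. The median mitochondrial member was 0.13 and 0.00, which is 0.11 and 0.10 above the median of all genes. On the deposited scale 77 of 78 nuclear members had 95% intervals within ±0.5, *Ndufa12* being the exception.

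*mt-Nd6* came next by p, with a difference of 0.57 (SE 0.18, limma adjusted p = 0.115; 0.45 on TPM), with the HYA-treated mice at 134 to 193 FPKM above the control mice at 99.7 to 116. *mt-Co1* at 0.13 and *mt-Nd2* at 0.12 also separated the 3 HYA-treated from the 3 control mice on the deposited scale without reaching a call, and on TPM they were at 0.0034 and −0.0019. *Sdha* was 158, 160.2 and 160.3 FPKM in HYA-treated mice, all above the control mice, and its 0.12 (SE 0.05, limma adjusted p = 0.216) was not called and became −0.0089 on TPM. *Ndufb11* at 0.14, *Ndufs3* at 0.15 and *Atp5h* at 0.15 were not called either, became 0.02, 0.03 and 0.02 on TPM, and overlapped between HYA-treated and control mice.

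In LA-treated against control mice no member was higher or lower, and 0% of all tested genes were in each direction, with 0% past both limits. By limma at an unadjusted p under 0.05, 1 member was higher and 0 lower, against 144 higher and 150 lower of all tested genes. The lowest adjusted p among members was 0.999. The median nuclear member differed by −0.01 and the median mitochondrial member by 0.04, and 77 of 78 nuclear intervals lay within ±0.5. *mt-Nd6* differed by 0.40 (SE 0.18) with overlap between the groups, and *Ndufa12* was −0.09 (SE 0.12) with a 95% interval from −0.35 to 0.17.

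HYA and LA, of which HYA carries a hydroxyl group in place of 1 double bond of LA, were given at the same 1% of the diet for the same 26 weeks and compared directly, as 1 of the 6 pairs of groups. *Ndufa12* was 1.93 times higher with HYA than with LA, 18.05 ± 2.36 against 9.35 ± 0.986 FPKM (SD, n = 3 each), a log2 difference of 0.88 (SE 0.12, 95% interval 0.62 to 1.14, limma adjusted p = 0.0268) that ranked 6th by p among all tested genes and was 0.80 on TPM (limma adjusted p = 0.0349). It was 1 member higher (0.235% of all tested genes were) and none lower (0.253% were), with no member past both limits (0.108% of all genes). By limma at an unadjusted p under 0.05, 9 members were higher and 0 lower of 91, against 1131 higher and 777 lower of all 11083 tested genes.

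Leaving out 1 mouse took the adjusted p of *Ndufa12* in HYA against LA above 0.05 for 6 of the 12 mice, at 0.0541 to 0.110 by limma, with differences of 0.83 to 0.95. These mice were ND replicate 2, HYA replicates 2 and 3, and each of the 3 LA-treated mice. For the other members the difference between HYA and LA had a median of 0.07 among nuclear and 0.07 among mitochondrial members on the deposited scale, which TPM turned to −0.04 and −0.05, and 76 of 78 nuclear intervals lay within ±0.5. The nuclear median was 0.06 above that of all genes on the deposited scale and 0.05 above it on TPM.

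The treated groups were also set against ND-fed mice, whose values enter the control comparison as well, so that these results are not independent of it. In HYA-treated against ND-fed mice 1 member was higher, *Ndufa12* (8.72% of all tested genes were higher), and 2 were lower, *mt-Co1* at −0.20 and *mt-Nd2* at −0.23 (7.85% were lower); 1 member, again *Ndufa12*, passed both limits (1.89% of all genes did). Without single mice the 2 lower calls became 0 for 8 of the 12 mice, 1 without HYA replicate 3 and 4 without control replicate 1. On TPM 9 members were higher and none lower, with 14.6% of all tested genes higher and 3.72% lower.

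In LA-treated against ND-fed mice none was higher (14.4% of all tested genes were) and 16 were lower, 17.6% of members (16.6% of all tested genes were lower), with none past both limits (3.49% of all genes). TPM gave 28 higher and none lower, with 32.6% of all tested genes higher and 5.58% lower. On the deposited scale 9 were lower without ND replicate 2 and 10 without LA replicate 1 or LA replicate 3, and 1 was higher without LA replicate 2. The 16 were *mt-Co1*, *mt-Nd2* and *mt-Nd4*, 9 nuclear complex I genes led by *Ndufv3* at −0.35 and *Ndufb10* and *Ndufs7* at −0.32 each, and *Atp5h*, *Atp5o*, *Cox7a2l* and *Uqcrc1*. The median mitochondrial member stood 0.27 below the median of all genes in LA-treated and 0.18 below it in HYA-treated mice on the deposited scale, against 0.26 in control mice, and 0.25, 0.17 and 0.24 below it on TPM. These medians take in the uncertain genes from *mt-Co2* to *mt-Nd4l*. Without them, the median of the other 7 differed from that of all genes by −0.20 in LA-treated mice on the deposited scale. It differed by −0.14 in HYA-treated and −0.26 in control mice.

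**Figure D5:**
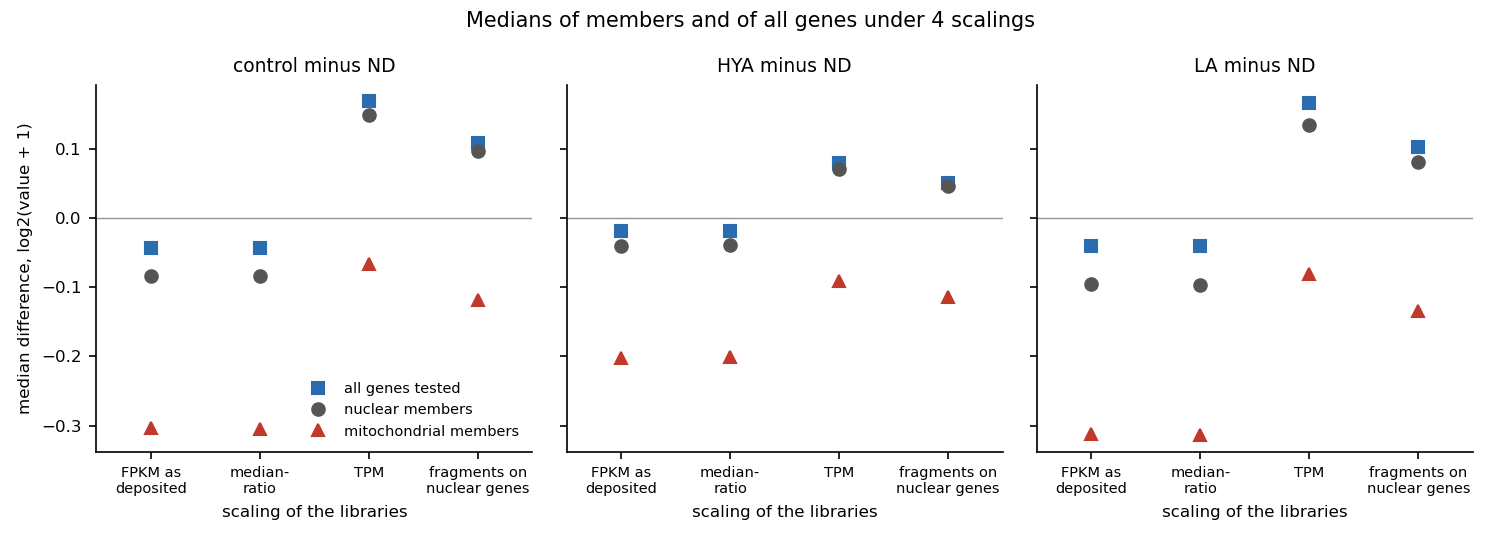
Median difference from ND-fed mice (y axis, log2(value + 1)) of all tested genes, nuclear members and mitochondrial members under 4 scalings of the libraries (x axis), 1 panel per diet. In control mice the median of all genes is −0.04 on the deposited scale and 0.17 on TPM, and the mitochondrial median lies below it by 0.26 and 0.24.

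Gene lists around oxidative phosphorylation were followed in control against ND-fed mice in the same way. Counts for this comparison in all the lists that follow stand beside shares of 16.2% higher and 19.1% lower among all tested genes on the deposited scale. The shares on TPM were given with the first comparison. Among 17 further subunits and carriers that the naming rule did not take in, 3 were higher and 3 lower: *Atpif1*, the inhibitor of ATP synthase, was 0.70 higher and *Slc25a4*, an ADP/ATP carrier, 0.64 higher, while *Sqor*, which feeds electrons from sulphide to ubiquinone, was 0.30 lower. On TPM 10 were higher and none lower. Of 46 assembly factors 2 were higher and 7 lower (8 and 1 on TPM). *Sco2*, which delivers copper to complex IV, was 0.95 lower and *Oxa1l*, which inserts mitochondrial proteins into the inner membrane, 0.34 lower, and *Sdhaf1*, an assembly factor of complex II, was 0.47 higher on the deposited scale.

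Of 31 genes of mitochondrial gene expression 1 was higher and 4 lower (6 and 0 on TPM), *Hsd17b10*, a component of mitochondrial RNase P, at −0.30 and *Mtif2*, a translation initiation factor, at −0.29. *Hsd17b10* was also the 1 gene of this list called higher in HYA-treated against control mice on the deposited scale (1.57% of all tested genes were). Its difference was 0.37 (SE 0.08, limma adjusted p = 0.0443), and the list held none called on TPM in that comparison. Of 18 regulators of respiratory genes 1 was higher, *Nfe2l2*, the oxidative stress factor NRF2, at 0.73, and 3 were lower, among them *Sirt1* at −0.30 and *Gabpa* at −0.25 on the deposited scale; on TPM 4 were higher and none lower. Of 22 genes of mitochondrial content and import 2 were higher and 4 lower (11 and 0 on TPM), with *Cs*, citrate synthase, 0.46 higher and *Dnm1l*, the fission factor, 0.27 lower on the deposited scale.

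Mitochondrial ribosomal proteins gave 5 higher and 12 lower of 77, which TPM turned to 25 and 0, with a median within 0.01 of that of all genes on both scales. Cytosolic ribosomal proteins gave 1 higher and 34 lower of 81, which TPM turned to 7 and 1, with a median 0.13 and 0.11 below that of all genes. The nuclear members, at 0.04 and 0.02 below it, lay between these lists, and the mitochondrial median lay below both, on each of these 2 scales.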

How the data were processed

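Liver RNA of 12 mice was sequenced on an Illumina platform from Nextera XT libraries. According to the submitters' processing notes, fastp, HISAT2 2.0.5 and featureCounts 1.5.0-p3 were used with GRCm38. The authors deposited 1 table of FPKM values per gene and mouse; their text speaks of TPM, but the columns total 342146 to 429286. In every column 100% of values times gene length were whole multiples of 1 step, to within 0.02 of a fragment or, above 100 fragments, 0.02%, so fragments were recovered for depth and for an added count-based fit. The members and the gene lists were chosen with earlier results of these data known. Groups came from the sample labels. The labels number the replicates and say no more of them, so p-values measure the spread between these samples.

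The main test was limma 3.58.1 (R 4.3.3; moderated variances with a mean-variance trend) on log2(FPKM + 1), all 12 mice in 1 fit, genes averaging 1 FPKM or more, Benjamini-Hochberg adjustment over all 11083 genes and a threshold of 0.05. This scale understates the change of low genes. Alternatives were median-ratio, TPM and nuclear-fragment scaling, other filters, a pseudocount of 0.1, only the 2 groups compared, the replicate number as a block, voom on recovered fragments (also with the authors' scaling, added after seeing the data), a log2 fold limit of 1, and leaving out each mouse. The script was tested on simulated data. Genes named with values were all 4 *Sdh* genes, the mitochondrial members, the highest nuclear member and up to 3 of the largest called nuclear changes each way per complex in control against ND-fed mice, members called in the comparisons of HYA, LA and control, and the isoform families; of other lists, up to 2 called genes each way, of which some are given here. *Ndufa12*'s flanking genes and start region, *Ndufb10*, *Ndufs7* and the chromosome 1 copies were added after their values were seen. Cytosolic ribosomal proteins were taken by symbol without the S6 kinases and binding proteins. Copies were aligned with Biopython on GENCODE M21 transcripts, and start regions came from RefSeq.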

Additional observations from a re-analysis of the deposited data

Results flagged for a closer look

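*Ndufa12* in HYA-treated against LA-treated mice was singled out because the effects of 2 fatty acids on the same high-fat diet differed by the test of the difference itself. The log2 difference was 0.88 (SE 0.12, limma adjusted p = 0.0268), higher in 3 of 3 HYA-treated mice than in any LA-treated mouse, and over the 22 alternatives it ran from 0.78 to 0.95 with adjusted p from 0.00217 to 0.110. No cause was tested. The call was kept under 15 of the 22.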

How the results depend on the processing

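The counts of called members in all 6 comparisons, the nuclear and mitochondrial medians in the 4 comparisons named here with medians, and 39 single-gene results were recomputed under 22 alternatives, and the counts also with a fold limit. The medians of single complexes and those of HYA and LA against ND were recomputed under the 4 scalings only. Median-ratio scaling and a pseudocount of 0.1 changed none of the single-gene calls. The scale of the libraries changed most. In control against ND-fed mice the members higher (1) and lower (17) became 30 and 1 on TPM, 19 and 2 when scaled to fragments on nuclear genes, and 19 and 3 by voom on recovered fragments. The nuclear median (−0.08) became 0.15, 0.10 and 0.11 in that order and the mitochondrial median (−0.30) became −0.067, −0.12 and −0.11. In HYA-treated against control mice the nuclear median (0.059) became −0.060, −0.032 and −0.035, and the mitochondrial median (0.13) became 0.0034, 0.031 and 0.026. In HYA against LA the nuclear median (0.072) became −0.045, −0.016 and −0.013, and the mitochondrial median (0.067) became −0.053, −0.023 and −0.021. Members higher than ND became 9, 6 and 5 in HYA-treated mice and 28, 13 and 12 in LA-treated mice, and members lower became 0, 0 and 0, and 0, 1 and 0.

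Single genes changed sign in control against ND-fed mice on TPM, *Ndufa4* to 0.041, *Ndufs8* to 0.069, *Cox6c* to 0.017 and *Ndufs7* to 0.019, and *Ndufs8* also to 0.017 with nuclear fragments and 0.022 with voom. In LA-treated against ND-fed mice *Cox7a2l* became 0.059, 0.0058 and 0.0075, *Uqcrc1* became 0.081, 0.027 and 0.030, and on TPM *Ndufs8* became 0.049 and *Ndufb5* 0.0074. Voom with the authors' scaling, chosen after seeing the data, kept 38 of 39 single-gene calls.

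With only the 2 groups compared in the fit, control against ND gave 0 higher and 7 lower, HYA against control 0 higher, and HYA against ND 1 lower. With no filter 11 were lower in control against ND, 0 lower in HYA against ND and 0 higher in HYA against LA, and at 10 mean fragments 0 were lower in HYA against ND. With a fold limit of 1 the counts were 0 higher and 0 lower in control against ND, 0 higher in HYA against control and HYA against LA, and 0 lower in HYA and LA against ND. Replicate numbers did not pair the mice, since same-numbered deviations correlated at −0.396 to 0.294 and 2 of 12 mice correlated best with their own number; with the replicate number as a block control against ND gave 2 higher and 19 lower.

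Leaving out 1 mouse at a time gave 0 to 1 higher and 9 to 21 lower in control against ND, with nuclear medians of −0.14 to −0.065 and mitochondrial medians of −0.38 to −0.30. HYA against control gave 0 to 1 higher, nuclear medians of 0.04 to 0.09 and mitochondrial medians of 0.059 to 0.16. LA against control gave 0 throughout, with nuclear medians of −0.04 to 0.02 and mitochondrial medians of −0.01 to 0.10. HYA against LA gave 0 to 1 higher, nuclear medians of 0.05 to 0.10 and mitochondrial medians of 0.04 to 0.10. HYA against ND gave 1 higher and 0 to 4 lower, and LA against ND 0 to 1 higher and 9 to 18 lower. The causes of these moves were not tested. Members under 1 FPKM were too low to test.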

Other observations

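*mt-Tt*, the mitochondrial transfer RNA for threonine, is no member and was noticed after its values were seen. It was 39.1, 23.5 and 21.6 FPKM in ND-fed mice, 7.63, 14.0 and 7.20 in control mice, 19.2, 22.2 and 22.3 in HYA-treated mice and 7.70, 6.999 and 9.37 in LA-treated mice, from 10 to 46 fragments per mouse. Control and LA-treated mice all lay below all ND-fed and HYA-treated mice. The difference of HYA from LA was not called (1.31, limma adjusted p = 0.0527). Other mitochondrial transfer RNAs went both ways in control against ND-fed mice. *mt-Tw* was at 0.34, *mt-Tm* at 0.42, *mt-Tp* at −0.42 and *mt-Tq* at −0.64, none of them called. How many genes of the whole table show the order seen in *mt-Tt* was not counted.

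*mt-Rnr1*, the small mitochondrial ribosomal RNA, was 504, 472 and 658 FPKM in ND-fed mice against 308, 417 and 388 in control mice, without overlap. It was 409, 442 and 380.1 FPKM in HYA-treated and 363, 381 and 335 in LA-treated mice. *mt-Rnr2*, the large ribosomal RNA, overlapped between diets, at 397, 309 and 444 FPKM in ND-fed mice against 276, 336 and 375 in control mice, and was not called (−0.21, limma adjusted p = 0.289).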
